A study of Pelodiscus sinensis with 18 samples.

Results

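Wnt proteins are secreted ligands that bind a frizzled receptor (FZD) together with the co-receptor LRP5 or LRP6. In the canonical branch this stops the AXIN scaffold from marking β-catenin for destruction, and β-catenin then acts on genes through the TCF and LEF factors. Secreted SFRP proteins and several DKK proteins hold ligands or co-receptors in check. R-spondins acting through LGR4, LGR5 or LGR6 strengthen the signal by sparing frizzled receptors from removal. In mammals the pathway maintains intestinal crypts and sets the pericentral zone of the liver lobule, and niclosamide is known as an inhibitor of it in mammalian cell lines.

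The genes described here are the Wnt ligands, their receptors, secreted inhibitors, R-spondins, LGR receptors, AXIN scaffolds and TCF/LEF factors in Pelodiscus sinensis, the Chinese soft-shelled turtle. They were chosen by symbol alone, as every row named WNT, FZD, DKK, SFRP or RSPO with a number, and LGR4 to LGR6, LRP5, LRP6, AXIN1, AXIN2, LEF1 and the TCF7 genes. This rule found 47 of 24880 rows, made up of 16 Wnt ligands, 11 frizzled and LRP receptors, 7 secreted inhibitors, 4 R-spondins, 3 LGR receptors, 2 AXIN scaffolds and 4 TCF/LEF factors. RNA was sequenced from liver and from gut of turtles labelled wild type, with or without niclosamide exposure; the compound is an anthelmintic that also kills snails. The groups are liver at 50 µg per L (nic50), at 10 µg per L (nic10) and without exposure (control), and gut at the same 3 levels, with 3 libraries each and 18 in all. Age, sex and exposure time are not in the labels. Nothing there ties the 3 libraries of a group to separate animals, so a p-value reflects only how much these libraries vary, and that variation may be technical.

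Levels are FPKM, in which fragment counts are divided by transcript length and by the number of fragments mapped, so that genes of different length can be compared. A liver library summed to between 588542 and 699273 FPKM and a gut library to between 677583 and 753840 FPKM, the depth behind them is unknown, and a value of 0 is therefore given only as listed at 0. Hepatocyte markers summed to 59100 to 91900 FPKM in liver and 86.9 to 151 FPKM in gut, and enterocyte markers to 19.2 to 33.4 FPKM in liver and 436 to 2850 FPKM in gut, so both tissue labels fitted their markers. The libraries of a group were not equally alike. Across genes, which are not independent replicates, log2 values correlated at 0.992 to 0.994 among the nic50 livers and at 0.993 between control livers 2 and 3, against 0.964 and 0.967 between control liver 1 and the other control livers and 0.946 to 0.975 among the nic10 livers. Gut nic10 libraries 1 and 3 stood apart from the other guts in their markers, with enterocyte sums of 436 and 1300 FPKM against 1650 FPKM or more elsewhere in gut. For SFRP1, FZD7, FZD8, RSPO3 and LGR5 in nic10 guts relative to controls, fold changes are given with and without these libraries. Other results on nic10 guts include them, unless a fit without them is named. Without gut nic10 libraries 1 and 3 the nic10 arm is 1 library, nic10 gut 2, which is assumed to vary like the other groups, so such a p-value rests on their spread. For the livers, control livers 2 and 3 were averaged to 1 value and the nic50 livers to 1 value (alike livers averaged).

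Most of the 16 Wnt ligand genes found by symbol were barely expressed. The ligand genes WNT3, WNT3A, WNT9B and WNT10B and the R-spondin gene RSPO4 were listed at 0 in all 18 libraries. Testing required 3 or more libraries of a fit with an FPKM of 1 or more, which left 16 of the 47 genes in the 9 liver libraries, 27 in the 9 gut libraries and 28 in the 18 libraries together. The other 19 were too low in both tissues: WNT1, WNT2, WNT3, WNT3A, WNT7A, WNT7B, WNT8A, WNT9B, WNT10B, WNT11, DKK1, DKK2, DKK4, SFRP2, SFRP4, RSPO1, RSPO4, FZD10 and LGR6. Of the 16 ligands 3 were tested in liver and 6 in gut, while of the 11 receptors 7 were tested in liver and 10 in gut. Several ligand genes lie side by side in the RefSeq annotation of assembly ASM4963464v1, with 0 protein-coding genes between WNT3 and WNT9B, between WNT1 and WNT10B, and between WNT3A and WNT9A. WNT3 and WNT9B were both listed at 0 throughout, whereas WNT3A was at 0 beside a neighbour, WNT9A, that averaged 0.732 FPKM in liver and 2.31 FPKM in gut. WNT6 and WNT10A are also neighbours in that annotation but had no row under these symbols, so they are not among the 16 ligands.

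**Figure D1:**
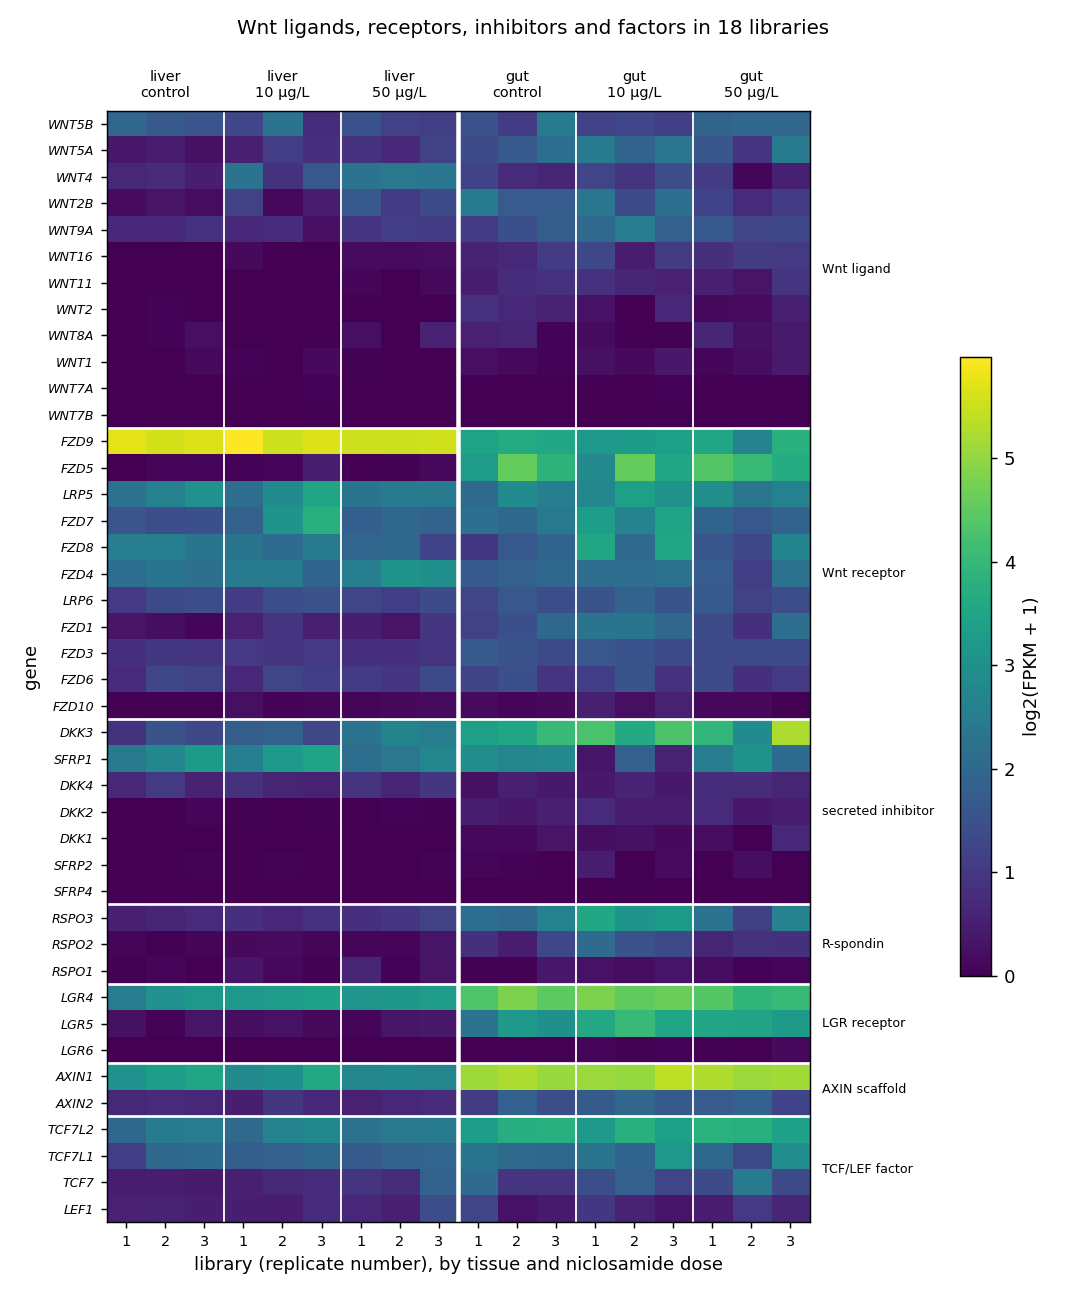
Expression of the 42 Wnt pathway genes with a value above 0 in any library, as log2(FPKM + 1), with genes down the page by role and the 18 libraries across, liver before gut and control, nic10 and nic50 within each tissue. FZD9 is the highest row in liver (45 to 62.3 FPKM) and AXIN1 in gut (32.1 to 41.3 FPKM). Most ligand rows are dark, the low end of the colour scale, in both tissues.

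In liver a single frizzled gene stood above all the other 46 genes. FZD9 averaged 49.2 ± 5.58 FPKM (SD, n = 9 libraries), and its lowest liver library, at 45 FPKM, lay above the highest liver value of any other of the genes, 12.9 FPKM for FZD7. After it came LGR4 at 7.9 ± 1.36 FPKM, AXIN1 at 7.62 ± 2.15, SFRP1 at 6.18 ± 2.33, LRP5 at 5.51 ± 2.25, FZD4 at 4.7 ± 1.58 and TCF7L2 at 4.37 ± 0.948. From LGR4 downwards the range of each gene overlapped that of the next, so this order is not beyond the spread. The leading liver ligand depended on the group. WNT5B was highest in control livers, at 2.38 ± 0.503 FPKM (SD, n = 3), with WNT4 at 0.555 ± 0.133, while WNT4 was highest at nic50, at 4.06 ± 0.197, with WNT5B at 1.41 ± 0.364.

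In gut the highest of the 47 genes was AXIN1, the scaffold of the β-catenin destruction complex, at 34.9 ± 3.21 FPKM (SD, n = 9). Its lowest gut library, at 32.1 FPKM, was above the highest library of LGR4, at 27.1 FPKM, but not above that of DKK3, which reached 37 FPKM in nic50 gut 3, where AXIN1 was at 34.4 FPKM. LGR4 at 21.1 ± 4.54 FPKM, DKK3 at 15.8 ± 8.96, FZD5 at 14.7 ± 6.03, TCF7L2 at 11.2 ± 1.93, FZD9 at 9.78 ± 2.25 and LGR5 at 9.53 ± 3.19 followed, each overlapping the next. No ligand led in every gut group. WNT5A, a ligand known mainly for β-catenin-independent signalling, had the highest mean over all guts, at 2.88 ± 1.31 FPKM, but WNT2B was above it in control guts, at 3.05 ± 1.33 against 2.41 ± 0.991 FPKM, and WNT5B at nic50, at 2.86 ± 0.0718 against 2.45 ± 1.8 FPKM, with overlapping libraries in both. Summed over the 16 ligands found by symbol, Wnt ligands reached 3.9 to 10 FPKM in a liver library and 7.73 to 17.1 FPKM in a gut library. R-spondins summed to 0.525 to 1.75 FPKM in liver and 2.01 to 14.5 FPKM in gut. RSPO3 made up 75.1% of the mean R-spondin level in liver and 79.7% in gut.

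Liver and gut were then compared in the controls. Of the 28 genes tested, 18 (64.3%) differed between the tissues at an adjusted p under 0.05, 2 higher and 16 lower in liver. Among all 13475 features tested the share was 64.1%, with 12.6% higher and 51.5% lower in liver, so the count for these genes is close to that background. The median difference was -0.74 for the 28 genes and -0.58 for all features on the log2(FPKM + 1) scale, on which every fold change below is given and which understates the change of low genes. Rescaling by trimmed means moved the median of all features to -0.18. It left 3 of these genes higher and 13 lower, with 20.1% of all features higher and 31.7% lower. Quantile normalization moved the median to -0.06. It left 5 of these genes higher and 11 lower, with 22.7% of all features higher and 27.4% lower. In whole tissue, fewer cells of a type and less RNA per cell cannot be told apart, here or in the comparisons that follow.

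FZD9 was the receptor that set liver apart. It had 52.2, 47.5 and 50.0 FPKM in control livers, against 10.0, 11.7 and 11.1 FPKM in control guts, with no overlap. The difference was 2.09 (SE 0.22, limma adjusted p = 5.97e-07), and it remained past the threshold at nic10, where it was 2.44, and at nic50, where it was 2.20. FZD8 had 4.86, 4.97 and 3.93 FPKM in control livers, against 0.950, 2.16 and 2.83 FPKM in control guts, a difference of 0.96 (SE 0.40, adjusted p = 0.0469). The call on FZD8 was held in 1 of the 6 fits that left out a library, and its adjusted p was between 0.0606 and 0.187 without any single control liver, gut control 1 or gut control 2.

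The receptor genes FZD5 and LGR5 were nearly absent from liver. FZD5, which in mouse gut is the frizzled of crypt epithelium and Paneth cells, had 0, 0.0581 and 0.0531 FPKM in control livers, against 8.87, 22.7 and 13.5 FPKM in control guts. This was the lowest difference of all 28 genes, at -3.86 (SE 0.36, adjusted p = 1.3e-07). LGR5, the R-spondin receptor that marks crypt stem cells in mouse, had 0.202, 0.0332 and 0.268 FPKM in control livers, against 3.88, 8.35 and 7.07 FPKM in control guts, a difference of -2.62 (SE 0.22, adjusted p = 3.58e-08). Its relative LGR4, which is widely expressed in mammals, was present in both tissues, with 4.83, 7.16 and 8.11 FPKM in control livers and 19.2, 27.1 and 21.4 FPKM in control guts. The LGR4 difference was -1.62 (SE 0.19, adjusted p = 1.73e-06). Control livers lay below control guts for all 3 genes. FZD5 and LGR5 reached the filter through gut alone, so a lower value in liver was already required of them.

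The ligand, R-spondin and DKK genes that differed were all lower in liver. RSPO3, an R-spondin, had 0.444, 0.525 and 0.640 FPKM in control livers, against 3.44, 3.20 and 5.22 FPKM in control guts, a difference of -1.67 (SE 0.29, adjusted p = 0.000118). WNT2B, a canonical ligand made by mesenchyme in the mammalian gut, had 0.136, 0.248 and 0.148 FPKM in control livers, against 4.58, 2.29 and 2.27 FPKM in control guts, a difference of -1.74 (SE 0.30, adjusted p = 0.00011). DKK3 is a divergent member of the Dickkopf family and was grouped with the secreted inhibitors by symbol alone. It had 0.838, 1.88 and 1.46 FPKM in control livers, against 9.43, 10.7 and 15.7 FPKM in control guts. The DKK3 difference was -2.43 (SE 0.42, adjusted p = 0.000105). None of the 3 genes overlapped between tissues in the controls. SFRP1, a secreted decoy that binds Wnt ligands, did not pass, with 6.25 ± 2.12 FPKM in control livers and 6.17 ± 0.505 FPKM in control guts (SD, n = 3 each; difference -0.02, SE 0.36).

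Inside the cell, AXIN1 had 7.18, 9.15 and 10.4 FPKM in control livers, against 33.5, 37.3 and 32.4 FPKM in control guts, a difference of -1.85 (SE 0.19, adjusted p = 4.3e-07). AXIN2, the AXIN that is itself a transcriptional target of the pathway in mammals, averaged 0.606 ± 0.0348 FPKM in control livers and 1.80 ± 0.749 FPKM in control guts. TCF7L2, the main TCF of mammalian gut epithelium, had 3.07, 4.46 and 4.75 FPKM in control livers, against 9.16, 12.3 and 13 FPKM in control guts, a difference of -1.29 (SE 0.22, adjusted p = 9.77e-05). The remaining genes lower in liver were FZD1, FZD3, WNT5A, WNT9A, WNT16, RSPO2 and TCF7, with differences from -0.60 for FZD3 to -1.36 for WNT5A. Of the 16 genes lower in liver, 7 (AXIN2, FZD1, FZD3, FZD5, LGR5, RSPO2 and WNT16) had 0 liver libraries at an FPKM of 1 or more and reached the filter through gut alone, and 4 others (RSPO3, TCF7, WNT5A and WNT9A) needed their gut values to reach it, so a lower value in liver was already required of these. For FZD3 the difference was -0.30 (adjusted p = 0.0593) after trimmed-mean rescaling and -0.01 after quantile normalization, where RSPO2, AXIN2, WNT9A and TCF7 also missed the threshold. WNT9A missed it without gut control 3 (adjusted p = 0.0614), and TCF7 in 4 of the 6 fits that left out a library, among them the fit without gut control 1 (-0.45).

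**Figure D2:**
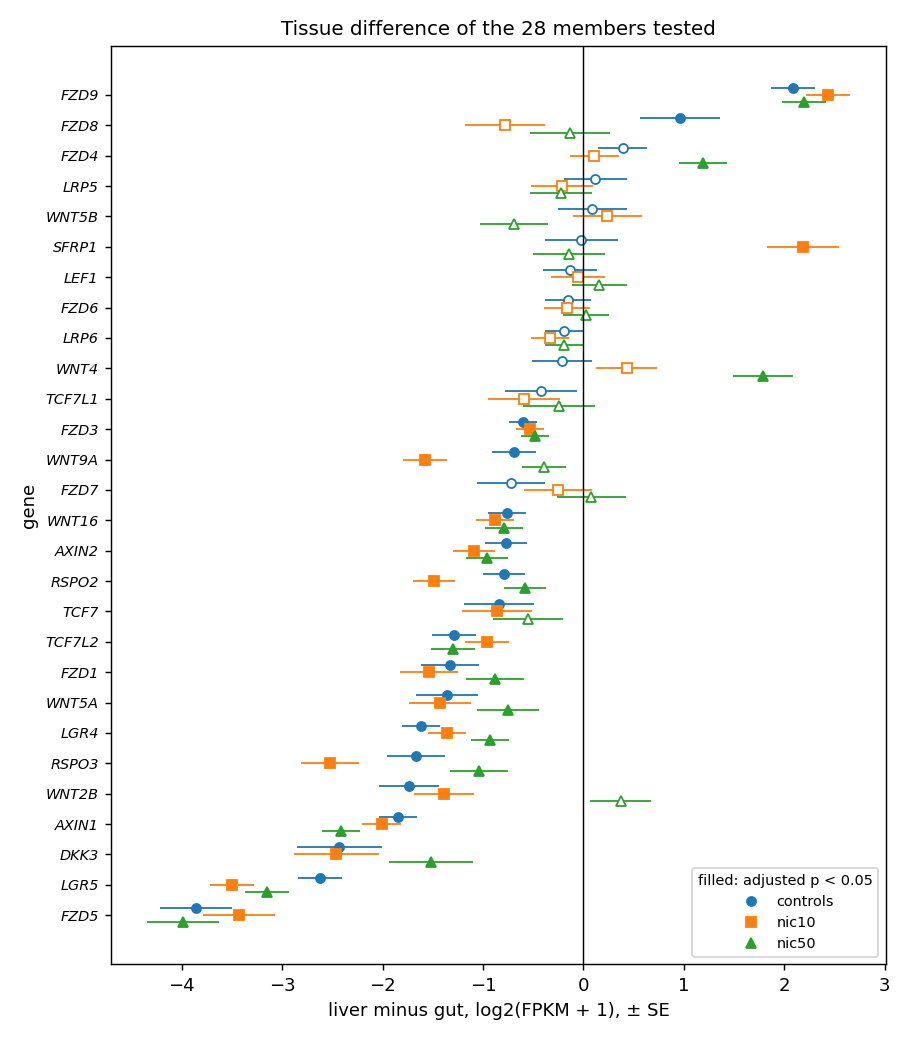
Liver minus gut difference on the log2(FPKM + 1) scale for the 28 tested Wnt pathway genes, with standard errors, in controls, at nic10 and at nic50; filled points have an adjusted p under 0.05. FZD9 lies on the liver side at all 3 levels (2.09, 2.44 and 2.20), and FZD5 (-3.86, -3.43 and -3.99) and LGR5 (-2.62, -3.50 and -3.15) on the gut side. FZD5 and LGR5 reached the filter through gut alone.

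The tissue comparison was repeated in exposed animals. At nic10, 2 genes were higher and 16 lower in liver, together 64.3% of those tested. Of all features 68.3% differed, 12% higher and 56.3% lower. At nic50, 3 genes were higher and 13 lower, together 57.1%, and of all features 59.6% differed, 15.2% higher and 44.4% lower. After quantile normalization 7 genes were higher and 10 lower at nic10, where 23% of all features were higher and 28.2% lower. At nic50 it left 3 higher and 7 lower, with 23% of all features higher and 28.5% lower. SFRP1 was one of the genes higher in liver at nic10, by 2.19 (SE 0.36, adjusted p = 6.11e-05), with 4.99, 8.29 and 10.3 FPKM in nic10 livers, against 0.255, 2.56 and 0.480 FPKM in nic10 guts. Without gut nic10 libraries 1 and 3 this difference was 1.26, from the single remaining nic10 gut. WNT4 and FZD4 were higher in liver at nic50, by 1.79 (SE 0.30, adjusted p = 9.1e-05) and by 1.19 (SE 0.24, adjusted p = 0.00054). Their values are given with the exposure results.

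The next comparison was of nic50 livers with control livers. WNT4, DKK3 and WNT2B, 3 of the 16 genes tested, rose in nic50 livers relative to control livers, and 0 fell. Over all 10892 features 4.71% passed in either direction and 3.69% were higher. Fold changes were above 0 for 9 of the 16, against 65.3% of all features, and their median was 0.04 against 0.13. WNT4 and WNT2B reached the filter on low values only through exposed livers, so that their presence among the tested genes already required a higher value there. The count of 3 was 1 without nic50 liver 1 or control liver 3, and 0 without nic50 liver 2 or 3. It was 0 with alike livers averaged and 7 with libraries weighted by their spread. The share of all features at these settings is not given here, so these counts show only dependence on the setting.

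WNT4, a ligand that in mammals acts in kidney, gonad and mesenchymal development, had 0.584, 0.671 and 0.410 FPKM in control livers, 3.86, 0.845 and 2.16 FPKM in nic10 livers, and 3.84, 4.23 and 4.11 FPKM in nic50 livers. The nic50 livers lay close together and above every control, and nic10 liver 1 overlapped them. The rise at nic50 was 1.71 (SE 0.29, limma adjusted p = 0.0114), with a mean of 4.06 ± 0.197 FPKM in nic50 livers and 0.555 ± 0.133 FPKM in control livers (SD, n = 3 each). WNT4 passed in 3 of the 6 fits that left out a library; without nic50 livers 1, 2 and 3 in turn the adjusted p was 0.0534, 0.0665 and 0.0705. With alike livers averaged the fold change was 1.70 (adjusted p = 0.942), in a fit where nic50 was a single value, 3 residual degrees of freedom remained and 2 of all features passed.

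DKK3 had 0.838, 1.88 and 1.46 FPKM in control livers, 2.38, 2.61 and 1.41 FPKM in nic10 livers, and 3.83, 5.50 and 4.79 FPKM in nic50 livers. The nic50 livers lay above all others, and the nic10 livers overlapped the controls. Its rise at nic50 was 1.27 (SE 0.24, adjusted p = 0.0164), and it passed in 3 of the 6 fits that left out a library. The adjusted p was 0.0942 without nic50 liver 2, 0.0942 without nic50 liver 3 and 0.0512 without control liver 3, and the fold change with alike livers averaged was 1.36 (adjusted p = 0.999).

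WNT2B had 0.136, 0.248 and 0.148 FPKM in control livers, 1.23, 0.0889 and 0.385 FPKM in nic10 livers, and 2.20, 1.01 and 1.62 FPKM in nic50 livers. All nic50 livers were above all controls, and nic10 liver 1 was above nic50 liver 2. The rise at nic50 was 1.13 (SE 0.27, adjusted p = 0.0403), and it was lost in each of the 6 fits that left out a library, where the adjusted p ran from 0.0729 to 0.174. It was lost as well with no filter (0.0717), a pseudocount of 0.1 (0.0574), trimmed-mean rescaling (0.0543) and quantile normalization (0.0887). A covariate for 29 features far higher in 5 libraries than in the others also lost it (0.0834). In liver those libraries are control livers 2 and 3 and no exposed liver, so this covariate is partly confounded with exposure.

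**Figure D3:**
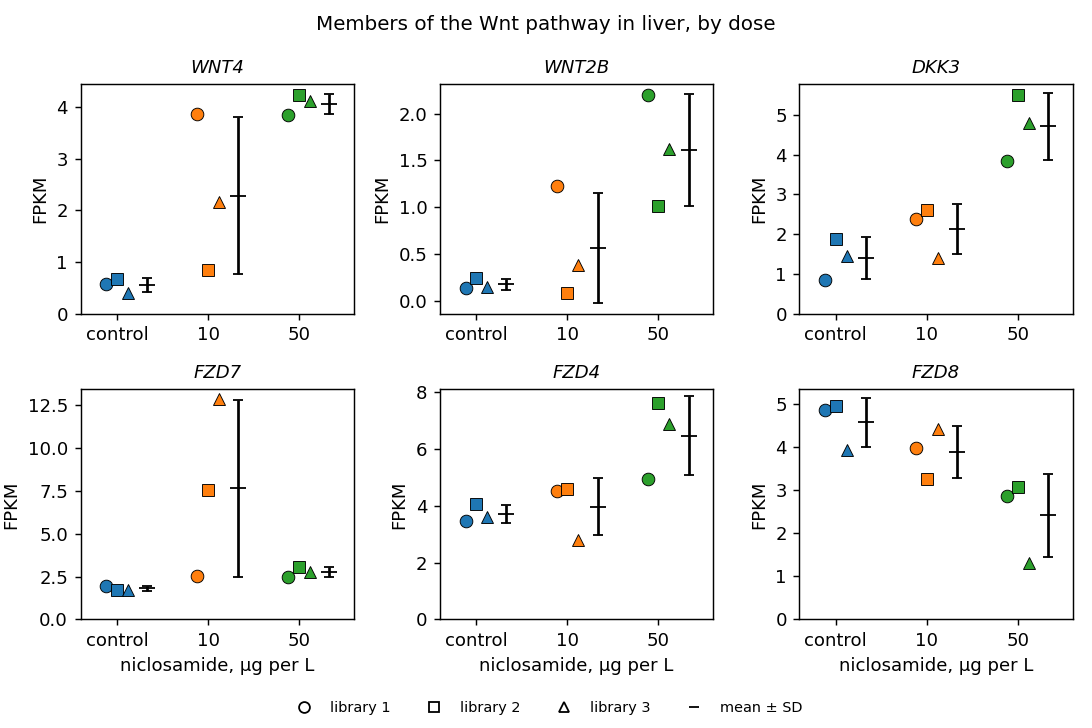
FPKM in each liver library by dose for WNT4, WNT2B, DKK3, FZD7, FZD4 and FZD8, with 1 symbol per library number and the mean and SD of each group. WNT4, WNT2B and DKK3 are highest at nic50, while FZD7 is highest in nic10 livers 2 and 3 (7.54 and 12.9 FPKM).

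Receptor genes of nic50 livers did not pass the test, although several groups were apart. FZD8 had 4.86, 4.97 and 3.93 FPKM in control livers, 3.99, 3.25 and 4.43 FPKM in nic10 livers, and 2.87, 3.08 and 1.31 FPKM in nic50 livers, a nic50 fold change of -0.75 (SE 0.24, adjusted p = 0.102). FZD4, a receptor known from mammalian vessels, had 3.44, 4.05 and 3.59 FPKM in control livers, 4.51, 4.59 and 2.80 FPKM in nic10 livers, and 4.92, 7.59 and 6.85 FPKM in nic50 livers, a fold change of 0.65 (SE 0.22, adjusted p = 0.116). The nic50 livers of FZD8 were all below the controls, and those of FZD4 all above. Over the 16 genes, 5 had every nic50 liver above every control (DKK3, FZD4, FZD7, WNT2B and WNT4), against 26.8% of all features, and 4 had every nic50 liver below (AXIN1, FZD8, FZD9 and WNT5B), against 8.75%. The co-receptors LRP5 and LRP6 had fold changes of -0.21 and -0.01, and TCF7L2 of 0.03, each smaller than its SE.

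Other genes moved with the 3 that rose. Of 14 markers of fibroblasts and stellate cells 12 were matched, and their summed level was 14.3 to 19.2 FPKM in control livers, 26.2 to 37 FPKM in nic10 livers and 40.8 to 63.9 FPKM in nic50 livers, with GLI1 listed at 0 in all 9 livers. Of the 9 tested, 5 rose at nic50, where 3.69% of all features were higher. They were COL3A1 (LOC102447978) by 1.40, HAND2 by 1.47, DCN by 1.26, RELN by 1.22 and COL1A1 by 1.06, and the median of the 9 was 1.22. COL3A1 passed in 5 of the 6 fits that left out a library, RELN in 2, DCN in 1, and HAND2 and COL1A1 in 0. Mesothelial markers, of which 4 of 5 were matched, summed to 0.107 to 0.317 FPKM in control livers, 0.764 to 1.39 FPKM in nic10 livers and 0.666 to 2.68 FPKM in nic50 livers, with MSLN and UPK3B listed at 0. Endothelial markers summed to 18.6 to 93.9 FPKM in control livers, 46.4 to 82.7 FPKM in nic10 livers and 34.5 to 52.6 FPKM in nic50 livers. PLVAP alone gave 0.924, 40.3 and 55.7 FPKM of this in control livers and at most 1.85 FPKM in nic50 livers; the other 10 endothelial markers summed to 17.7 to 38.1 FPKM in control livers, 19.6 to 31.8 FPKM in nic10 livers and 33.7 to 50.8 FPKM in nic50 livers. Smooth muscle markers overlapped, at 26.6 to 84.4 FPKM in control livers and 30.9 to 79.6 FPKM in nic50 livers, and 0 of 6 tested passed at nic50. Macrophage markers summed to 14.8 to 24.6 FPKM in control livers, 32 to 36.1 FPKM in nic10 livers and 21.6 to 29 FPKM in nic50 livers. The part of these cell types in the results for WNT4, DKK3 and WNT2B, or in the values of FZD4, was not tested.

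**Figure D4:**
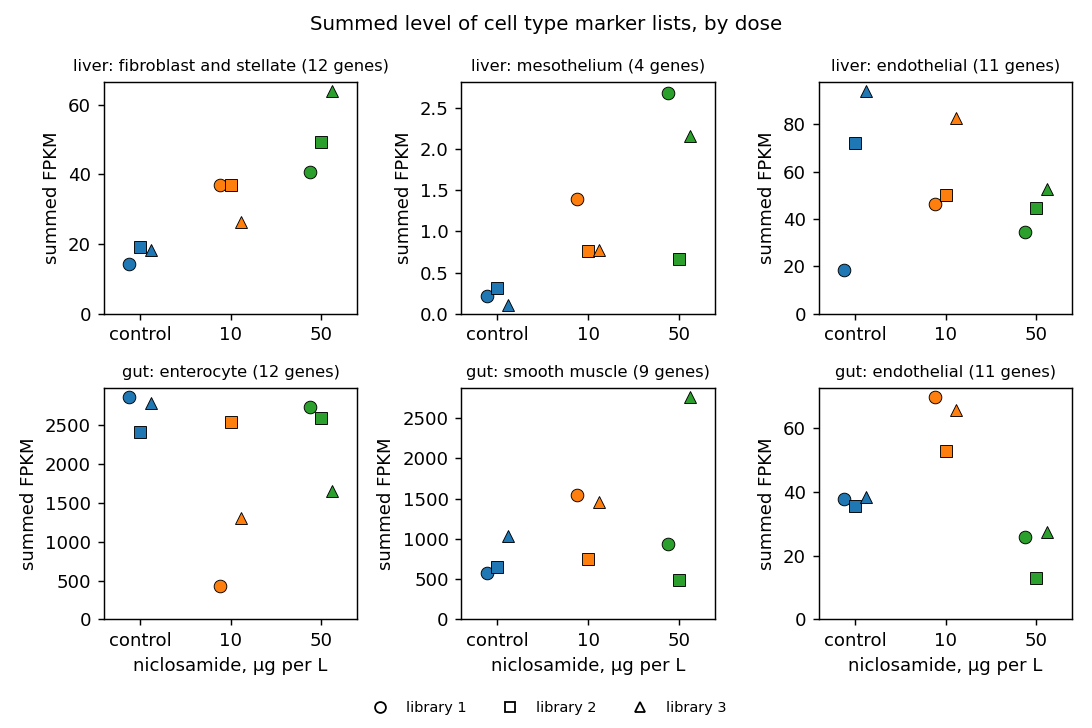
Summed FPKM of cell type marker lists in each library by dose, with fibroblast and stellate, mesothelial and endothelial markers in liver and enterocyte, smooth muscle and endothelial markers in gut. Fibroblast and stellate markers are highest in nic50 livers (40.8 to 63.9 FPKM), and gut nic10 libraries 1 and 3 have the lowest enterocyte sums (436 and 1300 FPKM).

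At the lower dose, 0 of the 16 genes passed in liver, where 1.07% of all features did; 2 genes had an unadjusted p under 0.05 in limma, against 13.5% of all features. One was FZD7, a receptor used by intestinal stem cells in mouse, with 1.97, 1.73 and 1.73 FPKM in control livers, 2.55, 7.54 and 12.9 FPKM in nic10 livers, and 2.45, 3.05 and 2.77 FPKM in nic50 livers. Every exposed liver was above every control, and nic10 livers 2 and 3 were far above the rest. Its fold change at nic10 was 1.41 (SE 0.39, adjusted p = 0.125), and 1.95 (adjusted p = 0.00413) without nic10 liver 1. The other was WNT4, at 0.97 (SE 0.29, adjusted p = 0.163), and at 1.34 (adjusted p = 0.0287) without nic10 liver 2. LGR4, next by p, stood at 0.38 (SE 0.20, adjusted p = 0.452), with 8.09, 8.80 and 9.72 FPKM in nic10 livers and 4.83, 7.16 and 8.11 FPKM in control livers. Both FZD7 and WNT4 had all nic10 livers above all controls, which held for 9.54% of all features.

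Between the doses, 0 of the 16 genes passed in nic50 livers relative to nic10 livers, where 2.53% of all features did, and 7 had an unadjusted p under 0.05 in limma, against 18.9% of all features. DKK3 was nearest, at 0.88 (SE 0.24, adjusted p = 0.0771). Without nic10 liver 1 the count was 4, with DKK3 at 0.94 (adjusted p = 0.0435). The share of all features in that fit is not given here. Both liver comparisons with controls use the same 3 control libraries.

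In gut, 0 of the 27 genes tested passed at nic10, where 0.174% of all 12617 features did; 7 genes had an unadjusted p under 0.05 in limma, a share of 25.9% against 14.9% of all features. Every nic10 gut lay above every control for 7 genes (FZD4, FZD7, FZD8, LGR5, RSPO2, RSPO3 and WNT9A), against 15.6% of all features, and below every control for 2 (SFRP1 and FZD9), against 6.38%. RSPO2 reached the filter only through nic10 guts, so its place among the 27 genes already required high values there. The median fold change was 0.33 over the 27 genes and 0.11 over all features.

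SFRP1 showed the smallest p of the 27. It had 6.73, 5.76 and 6.02 FPKM in control guts, 0.255, 2.56 and 0.480 FPKM in nic10 guts, and 4.82, 7.23 and 3.28 FPKM in nic50 guts. All nic10 guts were below all other guts, with libraries 1 and 3 lowest. The fold change at nic10 was -1.93 (SE 0.38, adjusted p = 0.127); it was -2.39 (adjusted p = 0.00731) without nic10 gut 2, and -1.01 (adjusted p = 0.604) without nic10 guts 1 and 3, which leaves 1 library in the arm.

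FZD7 had 3.57, 3.09 and 4.33 FPKM in control guts, 9.10, 5.33 and 10.1 FPKM in nic10 guts, and 2.81, 2.10 and 2.77 FPKM in nic50 guts, with the nic10 guts above all others. Its fold change at nic10 was 0.94 (SE 0.23, adjusted p = 0.182), 1.19 (adjusted p = 0.0274) without nic10 gut 2, and 0.45 (adjusted p = 0.636) without nic10 guts 1 and 3. FZD8 had 0.950, 2.16 and 2.83 FPKM in control guts, 10.9, 3.22 and 10.7 FPKM in nic10 guts, and 2.02, 1.47 and 5.46 FPKM in nic50 guts. Nic10 guts 1 and 3 were the highest, and the fold change at nic10 was 1.55 (SE 0.49, adjusted p = 0.239), or 0.56 (adjusted p = 0.762) without those libraries.

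Among the R-spondins and their receptors, RSPO2, RSPO3 and LGR5 had every nic10 gut above every control gut without passing the test. LGR4, the most abundant of the receptors, stood at 0.11 (SE 0.18) with overlapping groups, RSPO1 overlapped as well, at 0.155 to 0.255 FPKM in nic10 guts and 0.0227 to 0.312 FPKM in control guts, and RSPO4 was listed at 0. RSPO3 had 3.44, 3.20 and 5.22 FPKM in control guts, 11, 7.54 and 8.54 FPKM in nic10 guts, and 3.72, 1.18 and 5.34 FPKM in nic50 guts. The nic10 guts were above all other guts, by a fold change of 1.03 relative to controls (SE 0.36, adjusted p = 0.266), and by 0.81 (adjusted p = 0.672) without nic10 guts 1 and 3. RSPO2 had 0.762, 0.365 and 1.47 FPKM in control guts, 3.26, 1.82 and 1.48 FPKM in nic10 guts, and 0.534, 0.802 and 0.787 FPKM in nic50 guts, a fold change at nic10 of 0.78 (SE 0.27, adjusted p = 0.266). Without the nic10 guts RSPO2 would not have reached the filter, so high values there were already required of it. Summed R-spondins were 9.52 to 14.5 FPKM in nic10 guts and 3.6 to 7 FPKM in control guts. RSPO3 made up 79.7% of the mean R-spondin level in gut, so this sum largely repeats the RSPO3 values. LGR5 had 3.88, 8.35 and 7.07 FPKM in control guts, 11.2, 15.5 and 10.4 FPKM in nic10 guts, and 10.5, 10.4 and 8.52 FPKM in nic50 guts. Every exposed gut was above every control gut in LGR5; the fold change was 0.88 at nic10 (SE 0.26, adjusted p = 0.219), 1.20 (adjusted p = 0.604) without nic10 guts 1 and 3, and 0.59 at nic50 (SE 0.26, adjusted p = 0.762).

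**Figure D5:**
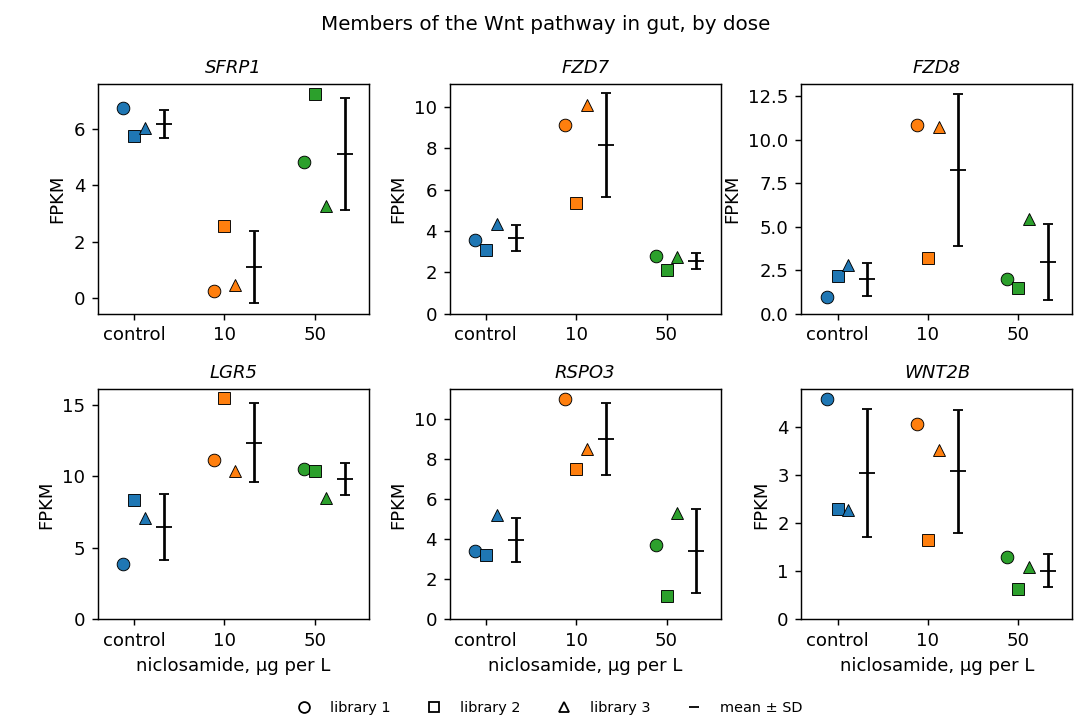
FPKM in each gut library by dose for SFRP1, FZD7, FZD8, LGR5, RSPO3 and WNT2B, with 1 symbol per library number and the mean and SD of each group. SFRP1 is lowest and FZD7 and RSPO3 are highest in the nic10 guts, and WNT2B is lowest in the nic50 guts (0.629 to 1.30 FPKM).

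Cell type markers differed between the same gut libraries. Enterocyte markers, all 12 matched, summed to 2410 to 2850 FPKM in control guts, 436, 2540 and 1300 FPKM in nic10 guts 1, 2 and 3, and 1650 to 2730 FPKM in nic50 guts. Smooth muscle markers, 9 of 10 matched, summed to 573 to 1040 FPKM in control guts, 1540, 755 and 1460 FPKM in nic10 guts 1, 2 and 3, and 484 to 2760 FPKM in nic50 guts. Endothelial markers, all 11 matched, summed to 35.5 to 38.4 FPKM in control guts, 52.9 to 69.7 FPKM in nic10 guts and 13.1 to 27.5 FPKM in nic50 guts, so the 3 groups did not overlap, with or without PLVAP. Markers of enteric neurons and glia summed to 29 to 42.1 FPKM in control guts, 41 to 70.3 FPKM in nic10 guts and 11.7 to 39.9 FPKM in nic50 guts, and those of fibroblasts and stellate cells to 40.9 to 55.7, 54.4 to 63.2 and 19.8 to 69.9 FPKM in the same order. None of the markers of these 5 lists was at 0 in all libraries of a gut group. Their part in the values of SFRP1, FZD7, FZD8, RSPO2, RSPO3 and LGR5 was not tested.

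At nic50, 0 of the 27 genes passed in gut relative to controls, where 0.0238% of all features did, and 3 had an unadjusted p under 0.05 in limma, against 6.5% of all features. WNT2B had 4.58, 2.29 and 2.27 FPKM in control guts, 4.06, 1.64 and 3.52 FPKM in nic10 guts, and 1.30, 0.629 and 1.10 FPKM in nic50 guts. The nic50 guts were below all others, and the fold change relative to controls was -0.98 (SE 0.31, adjusted p = 0.637). LGR4 was the next by p, with 19.2, 27.1 and 21.4 FPKM in control guts, 26.9, 22.1 and 23.9 FPKM in nic10 guts, and 20.1, 14.0 and 15.4 FPKM in nic50 guts, a fold change at nic50 of -0.43 (SE 0.18, adjusted p = 0.751). LGR5 was the third. AXIN1 and TCF7L2 stood at 0.02 and 0.04.

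Relative to nic10, 0 of the 27 genes passed in nic50 guts, where 0.119% of all features did; 9 had an unadjusted p under 0.05 in limma, against 14.2% of all features. FZD7 stood at -1.33 (SE 0.23, adjusted p = 0.0749), RSPO3 at -1.30 (SE 0.36, adjusted p = 0.207) and SFRP1 at 1.65 (SE 0.38, adjusted p = 0.147). Without nic10 gut 2, FZD7 was at -1.58 (adjusted p = 0.00831) and SFRP1 at 2.11 (adjusted p = 0.00974), and both passed. Without nic10 guts 1 and 3, which leaves 1 library in the arm, FZD7 was at -0.84 and SFRP1 at 0.73. These values share the nic10 libraries with the comparison of nic10 with controls.

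Whether exposure acted differently in the tissues was tested as the liver change minus the gut change. At nic50, 2 of 28 genes passed, WNT2B and WNT4, both with a positive difference, against 0.987% of all features. WNT2B differed by 2.10 (SE 0.42, adjusted p = 0.0233), from a change of 1.13 in liver and -0.98 in gut. WNT4 differed by 2.0 (SE 0.42, adjusted p = 0.031); its gut values were 1.31, 0.641 and 0.529 FPKM in controls, 1.36, 0.854 and 1.66 FPKM at nic10, and 1.05, 0.0735 and 0.433 FPKM at nic50. WNT2B passed in 7 of the 12 fits that left out a library and WNT4 in 2, and neither passed with alike livers averaged (adjusted p = 0.491 for WNT2B and 0.615 for WNT4). WNT2B was lost without nic50 liver 1, nic50 liver 3, control liver 3, nic50 gut 2 or control gut 1, with adjusted p from 0.0576 to 0.0817, and WNT4 was held only without nic50 gut 1 or control gut 3, with adjusted p from 0.0506 to 0.107 without any other library.

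At nic10, 0 of 28 genes passed this test, against 0.364% of all features, and 5 had an unadjusted p under 0.05 in limma, against 9.83% of all features. SFRP1 was nearest, with a difference of 2.21 (SE 0.50, adjusted p = 0.0758). It was 2.67 (adjusted p = 0.00301) without nic10 gut 2, 2.47 (adjusted p = 0.0413) without nic10 liver 1 and 1.29 (adjusted p = 0.443) without nic10 guts 1 and 3.

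The TCF and LEF factors bring β-catenin to its targets, and TCF7 and LEF1 differed widely between libraries of a group. TCF7 had 0.400, 0.364 and 0.349 FPKM in control livers, 0.433, 0.588 and 0.685 FPKM in nic10 livers, and 0.910, 0.727 and 2.62 FPKM in nic50 livers. LEF1 had 0.466, 0.478 and 0.406 FPKM in control livers, 0.415, 0.401 and 0.688 FPKM in nic10 livers, and 0.600, 0.433 and 1.68 FPKM in nic50 livers. Nic50 liver 3 was the highest liver for both, and neither gene passed the filter in liver. In gut, nic50 library 2 and control library 1 were the 2 highest for both genes, with 4.64 and 3.25 FPKM for TCF7 and 1.0 and 1.38 FPKM for LEF1. TCF7L1, which acts mainly as a repressor in mammals, ran from 1.15 to 3.23 FPKM in liver and from 1.48 to 8.2 FPKM in gut. TCF7 and LEF1 are known from mammalian T cells, whose markers were not among the lists used.

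Other pathway genes were examined through 6 lists. In nic50 livers relative to controls, 0 of 6 tested genes of Wnt secretion and the cell surface passed, and 0 of 28 of the cytoplasmic and nuclear canonical pathway. Of 10 genes of the planar polarity and calcium branch 2 rose, the small GTPase RAC1 by 0.89 (adjusted p = 0.0222) and the calcineurin subunit PPP3CA by 0.88 (adjusted p = 0.0453). Of 9 transcriptional targets known from mammals, BMP4 rose, by 1.08 (adjusted p = 0.045), of 6 crypt genes MSI1 rose, by 0.81 (adjusted p = 0.041), and of 10 pericentral genes known from mouse 0 passed. Over all features 3.69% were higher in nic50 livers, and the median fold change was 0.13. The medians of the 6 lists, in the order given, were 0.02, 0.02, 0.13, 0.44, 0.27 and -0.03. BMP4 and PPP3CA were lost in all 6 fits that left out a library, and MSI1 and RAC1 were held in 1 each. MYC had 15.1, 28 and 32.3 FPKM in control livers, 17.2, 14.7 and 20.6 FPKM in nic10 livers, and 42.6, 43.6 and 44.8 FPKM in nic50 livers, and rose in nic50 relative to nic10 livers by 1.28 (adjusted p = 0.0306). This MYC call was lost without nic50 livers 1, 2 or 3 or nic10 liver 2, with adjusted p from 0.0863 to 0.153. No listed gene passed in nic10 livers or in either exposed gut group relative to controls in limma.

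These lists also set the tissues side by side. In controls, 0 of 15 tested transcriptional targets were higher and 14 were lower in liver, among them CDX1 by -5.70, ID2 by -3.49 and SOX9 by -3.48. Over all features 12.6% were higher and 51.5% lower in liver. The median of the 15 targets was -1.47, against -0.58 for all features. Only 9 of these targets reached the filter within the livers. The others, CDX1 among them, needed their gut values to reach it, so a lower value in liver was already required of them. CDX1 is also one of the enterocyte markers. CTNNB1, which encodes β-catenin, averaged 70 FPKM in control livers and 144 FPKM in control guts, a difference of -1.03 (adjusted p = 3.62e-06). GLUL, glutamine synthetase and the standard pericentral marker of mouse liver, had 1.98, 0.899 and 1.30 FPKM in control livers, against 42.8, 75.3 and 42.4 FPKM in control guts, a difference of -4.48 (SE 0.29, adjusted p = 1.42e-09). Of the 11 pericentral genes tested 3 were higher in liver, the transporters SLCO1B3 by 5.30, SLC13A3 by 3.52 and SLC1A4 by 2.87, and 5 were lower, AXIN2 among them.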

How the data were processed

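The authors deposited 1 table of FPKM values for 18 libraries, per the file headers. FPKM is already scaled by the authors to transcript length and mapped fragments, and no read count was used. TRIzol extraction and a VAHTS library kit are recorded, per the labels' protocols. CASAVA is the only tool in the submitters' processing notes. An aligner, a counting tool and a genome build were not given in the sources used here.

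Deposited values were put on a log2(FPKM + 1) scale and tested in limma 3.58.1 (R 4.3.3; trended empirical Bayes). Exposure comparisons came from 1 fit per tissue with its 3 groups, and tissue differences and interactions from a fit of all 18 libraries. Features needed an FPKM of 1 or more in 3 or more libraries of the fit. Two-sided p-values were adjusted over all features of a comparison (Benjamini-Hochberg), and the threshold was 0.05. The fit was also run on simulated independent libraries, with known changes placed only in better expressed features. That run does not cover genes as low as WNT4 and WNT2B, or libraries that are technical copies. Of the 47 symbols 46 were found in RefSeq assembly ASM4963464v1, taken only for names and gene order. Reads of near-identical paralogs could have been split by the counting.

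The genes, lists and tests were chosen with earlier results of these data known. Genes named with values are those past the threshold in an exposure comparison or interaction, the highest gene of each role in each tissue, the 6 highest and 6 lowest tissue differences among those past the threshold, and the 3 smallest p-values where fewer than 3 passed. FZD4, RSPO2, LEF1, TCF7, TCF7L1, LRP5, LRP6 and the exposure values of FZD8 were chosen after they were seen. As alternatives the fits were repeated without the filter, with a pseudocount of 0.1 and with a minimum mean FPKM of 5. Others used trimmed-mean rescaling, quantile normalization, library weights, only the groups compared or a replicate block. Further fits left out each library in turn or gut nic10 libraries 1 and 3, or averaged alike livers. The last added a covariate for 29 features that were higher in 5 libraries. Each of the 29 was above 0.3 FPKM in all 5 libraries, at more than 5 times its highest value in the other 13. The 5 libraries are control livers 2 and 3, control guts 1 and 2 and nic50 gut 3.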

Additional observations from a re-analysis of the deposited data

Results flagged for a closer look

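By an interaction test in limma the change at nic50 differed between liver and gut for 2 of the 28 genes tested. Among all features the share was 0.987%. WNT2B passed in 7 of the 12 fits that left out a library and WNT4 in 2. Neither passed with alike livers averaged. For WNT2B the liver change minus the gut change was 2.10, with 2.20, 1.01 and 1.62 FPKM in nic50 livers against 0.136, 0.248 and 0.148 FPKM in control livers, and 1.30, 0.629 and 1.10 FPKM in nic50 guts against 4.58, 2.29 and 2.27 FPKM in control guts. All nic50 livers were above all control livers and all nic50 guts were below all control guts. For WNT4 the difference was 2.0, with nic50 livers above control livers and nic50 guts overlapping control guts.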

How the results depend on the processing

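Counts of Wnt pathway genes past the threshold moved with the following settings. Here and in the next paragraph no share of all features is given beside a count, so the counts show only dependence on the setting. With library weights the count was 1 in nic10 livers, 7 in nic50 livers, 9 for nic50 against nic10 livers, 5 in nic10 guts, 5 for nic50 against nic10 guts and 5 for the interaction at nic10. With a mean FPKM of at least 5, which leaves fewer genes to test, it was 0 in nic50 livers and 0 for the interaction at nic50. Both 0 counts were fixed by this filter, since the genes otherwise called there were not tested. WNT4, DKK3 and WNT2B averaged 2.30, 2.74 and 0.786 FPKM in liver, and WNT4 and WNT2B 0.879 and 2.38 FPKM in gut. For liver against gut in controls, at nic10 and at nic50 the count with this filter was 6, 7 and 6. Averaging alike livers, which leaves fewer degrees of freedom, gave 0 in nic50 livers, 0 for the interaction at nic50 and 9 for liver against gut at nic50. Quantile normalization gave 10 for liver against gut at nic50, 1 for the interaction at nic10 and 0 for that at nic50. A pseudocount of 0.1 and no filter each gave 1 for the interaction at nic50, and the covariate for the 29 features gave 1 for nic50 against nic10 livers. Apart from the settings named with fewer genes or degrees of freedom, the cause was not tested. FZD3 in liver against gut at nic10 reversed under quantile normalization, with 0.18 against -0.53.

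Leaving out 1 library gave counts of 0 to 1 in nic10 livers, 0 to 2 in nic50 livers, 0 to 4 for nic50 against nic10 livers, 0 to 2 in nic10 guts, 0 to 2 for nic50 against nic10 guts, 0 to 2 for the interaction at nic10 and 0 to 2 for that at nic50. The labels give libraries of different groups only a shared number. They do not say whether a liver and a gut library of the same number come from the same animal. Same-numbered deviations correlated at -0.29 to 0.26, which cannot settle this, and the main fits treat the libraries as unlinked. With the replicate number as a block, 3 genes passed in nic50 livers, 0 in the other exposure comparisons and for the interaction at nic10, 17, 17 and 16 in the tissue comparisons, and 2 for the interaction at nic50. With 3 libraries a group and unknown depth, a gene that missed the threshold is not shown to be unaffected.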

Other observations

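NOTUM, which encodes a secreted enzyme that inactivates Wnt ligands and is a target of the pathway in mammals, was named after its values were seen. It had 2.69, 4.77 and 5.06 FPKM in control guts, 14.3, 8.03 and 10.1 FPKM in nic10 guts, and 5.61, 2.47 and 8.75 FPKM in nic50 guts. All nic10 guts were above all control guts, with a fold change of 1.19 on the log2(FPKM + 1) scale (SE 0.38, limma adjusted p = 0.239), which is not past the threshold.

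The mesothelial markers with a value above 0 in liver were WT1 and LRRN4, described after their values were seen. LRRN4 had 0.0283, 0.244 and 0.0619 FPKM in control livers, 0.853, 0 and 0.425 FPKM in nic10 livers, and 1.34, 0.380 and 1.10 FPKM in nic50 livers. WT1 had 0.187, 0.0726 and 0.0448 FPKM in control livers, 0.534, 0.764 and 0.349 FPKM in nic10 livers, and 1.34, 0.286 and 1.05 FPKM in nic50 livers. In nic50 livers both markers were highest in library 1 and lowest in library 2, as WNT2B was. WNT4 and DKK3 were the reverse there, lowest in library 1 and highest in library 2. In nic10 livers LRRN4 had the order of WNT2B and WT1 did not, being highest in library 2. No correlation is given over 3 libraries, and both markers were too low to be tested among the livers. WNT4 differed little between the nic50 livers, at 3.84, 4.23 and 4.11 FPKM. The order of 3 such libraries cannot tie a gene to a cell type, and the part of mesothelial cells was not tested.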
